A study of Rattus norvegicus with 18 samples.

Results

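The adrenal gland of the WKY rat was compared between 6 and 3 weeks of age. WKY is the normotensive strain of a series that also held 2 hypertensive strains, SHR (spontaneously hypertensive) and its stroke-prone substrain SHRSP. The comparison rested on 6 of the 18 arrays of the series, chosen by their labelled strain and age: 3 arrays of WKY glands at 6 weeks and 3 at 3 weeks. The glands of all groups came from untreated rats. The labels call the 3 samples of a group biological replicates, and the sources used here give neither the sex of the rats nor whether a sample held the glands of a single rat.

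The adrenal gland has an outer cortex, which makes steroid hormones from cholesterol, and an inner medulla of chromaffin cells, which make catecholamines. In the cortex, the zona glomerulosa makes aldosterone and the zona fasciculata makes corticosterone, the main glucocorticoid of the rat, under the control of ACTH from the pituitary. The gland keeps growing after birth: cells of the capsule and outer cortex, where Hedgehog and Wnt signals act, give rise to new steroid-making cells. Rats are weaned at about the younger of these ages and approach puberty at about the older one.

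A level is the log2 processed signal of a probe after subtracting its array's 75th percentile, so a value of 0 is the signal that 75% of the spots do not exceed. A level depends on the probe, and levels of different probes are not compared. Differences are log2 values at 6 weeks minus 3 weeks with the standard error from limma, n = 3 arrays in each group, and a gene was called where its p, adjusted by Benjamini-Hochberg over all genes tested, was under 0.05. The arrays of a group correlated at 0.988 to 0.994 at 6 weeks and at 0.994 to 0.996 at 3 weeks, over 20868 genes. At 6 weeks replicate 2 stood slightly apart, with correlations of 0.988 and 0.990 to the other replicates, which correlated at 0.994 with each other. Slide 1 held replicate 1 of both ages and slide 4 replicate 3 of both ages, so 2 pairs allowed a comparison within a slide, while replicate 2 lay on a different slide at each age. Replicate 2 at 6 weeks lay on slide 5, which held only 6-week arrays and was scanned on a day of its own. Probes for Cyp11b1, Cyp21a1, Cyp11a1, Star and Nr5a1 of the cortex and Th, Dbh, Pnmt and Chga of the medulla were well above background on all 6 arrays.

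At 6 weeks 1076 genes were higher than at 3 weeks and 1496 were lower, out of 20868 tested. These shares of 5.16% and 7.17%, or 12.3% for both directions, are the background against which the counts for gene groups below can be read. The difference reached 2-fold for 228 of the higher and 186 of the lower genes, and 4-fold for 40 and 24 of them. The values of the ages did not overlap for 6761 genes, 32.4% of those tested, and for 2558 of the 2572 called genes. Within slide 1 all 2572 called genes differed in the direction of the fit, and within slide 4 2566 of 2571 did, although these arrays were part of the fit. The number of calls fell to 1493, 1564 and 1444 when replicate 1, 2 or 3 of the 3-week glands was left out. The median difference over all genes was 0.02. With each array centred on its median instead of its 75th percentile, the higher genes were 52.4% of the calls (1036 higher, 941 lower), against 41.8% with the percentile.

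The largest change in either direction was the fall of Akr1c3, listed as Akr1c18 in the array design, which encodes the 20α-hydroxysteroid dehydrogenase that inactivates progesterone. In mice, the product of Akr1c18 marks the X zone, a transient inner layer of the cortex. Akr1c3 was measured by 2 probes that lie on rat chromosome 17 (rn4), at chr17:77284120-77284179 and at chr17:77276610-77277642 on the plus strand. The second span is longer than the probe, which is 60 bases. The sources used here do not say whether a probe covers coding or untranslated exon sequence. The probes are shown in lower case, since their letters share no run of 15 bases with another probe of the family.
Akr1c3, first probe: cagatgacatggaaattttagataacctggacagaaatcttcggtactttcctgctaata
Akr1c3, second probe: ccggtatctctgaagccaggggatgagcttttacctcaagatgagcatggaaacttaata

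The first Akr1c3 probe read -7.02, -6.81 and -7.55 at 6 weeks, against 2.68, 1.98 and 3.12 at 3 weeks. All 3 arrays at 3 weeks were above the 75th percentile of the array, and at 6 weeks the probe was well above background on 2 of 3 arrays. Akr1c3 fell by 9.72 ± 0.42 on the log2 scale, or 844-fold (adjusted p = 2.66e-08). In a fit of every probe apart, the second probe read -7.25, -7.10 and -8.84 at 6 weeks, against 1.47, 0.84 and 2.04 at 3 weeks, and it fell by 9.18 ± 0.48 (adjusted p = 9.79e-08). It was well above background on 1 of 3 arrays at 6 weeks. Both probes of the gene were thus lower on every 6-week array than on any 3-week array. In whole glands, fewer cells of a type and less RNA per cell cannot be told apart.

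Other members of the Akr1c family, which reduce steroids and other carbonyl compounds and lie together on chromosome 17, were lower as well. This family was taken up after its values were seen. It was covered by 10 probes for 9 names, of which 2, Akr1c1 and Akr1c2, were not well above background on any WKY array. Of the other 7, 5 had a probe that was lower at 6 weeks and none had one that was higher, with 7.1% of all probes lower when each was fitted apart. Akr1c14, the 3α-hydroxysteroid dehydrogenase, read -5.55, -5.45 and -5.71 at 6 weeks, against 0.02, -0.13 and 0.36 at 3 weeks. It fell by 5.65 ± 0.32, or 50.2-fold (adjusted p = 1.64e-07). Akr1c12, listed as Akr1c13 in the array design, read -3.02, -2.70 and -2.97 at 6 weeks, against -0.23, -0.47 and 0.08 at 3 weeks (difference -2.69 ± 0.18, adjusted p = 1.24e-06). The groups did not overlap for these genes or for Akr1c12l1, which differed by -1.59 ± 0.18 (adjusted p = 7.38e-05). Akr1c19 differed by -0.72 ± 0.17 (adjusted p = 0.0147), and its values at the ages did not overlap either. Akr1c13, listed as Akr1c12 in the array design, with -0.37 ± 0.54 (adjusted p = 0.718), and Akr1c15, listed as Akr1cl1, with -0.37 ± 0.63 (adjusted p = 0.762), were not called, and their values at the ages overlapped.

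**Figure D1:**
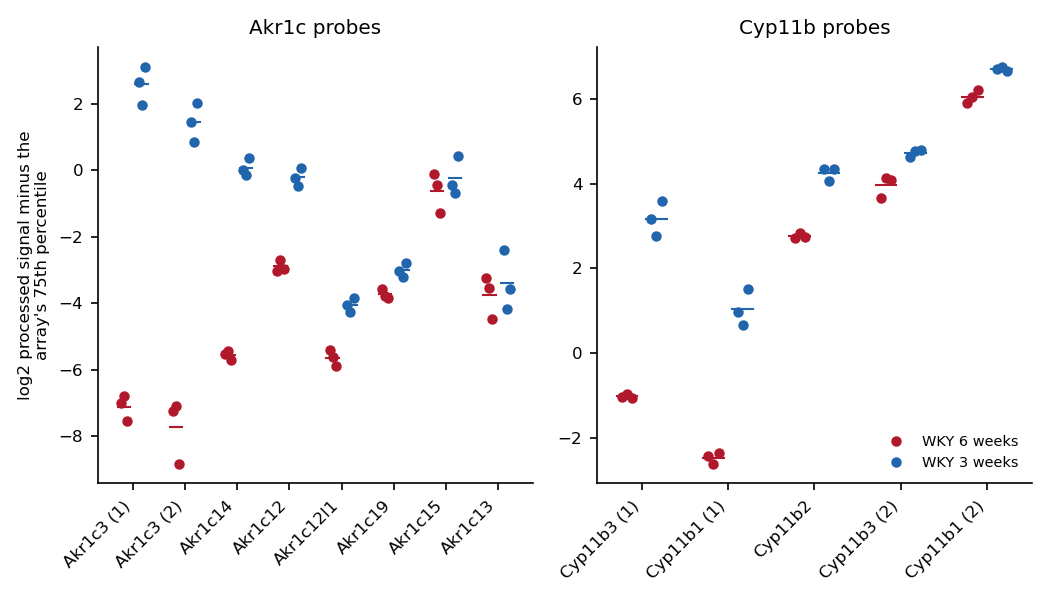
Level of each probe for the Akr1c genes (left) and the Cyp11b genes (right) on the 3 WKY arrays at 6 weeks (red) and the 3 at 3 weeks (blue), as log2 processed signal relative to the array's 75th percentile, with lines at the group means. Probes of a gene with 2 probes are numbered, and levels of different probes are not comparable. The first Akr1c3 probe lies between -7.55 and -6.81 at 6 weeks, against 1.98 to 3.12 at 3 weeks.

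Of the other 7 largest falls, Lgi2, of the secreted leucine-rich LGI family, stood out from background on no 6-week array. Its probe read -10.36, -9.65 and -9.67 at 6 weeks, against -4.50, -4.50 and -4.13 at 3 weeks, and it was at least 10.6-fold lower at 6 weeks (adjusted p = 1.29e-07), a bound set by the lowest signals that are well above background. Ryr1l was likewise not well above background on any 6-week array and was at least 4.26-fold lower (adjusted p = 0.000255). Cdh1, the epithelial cadherin, whose 6-week arrays lay far apart, read -3.75, -0.84 and -1.88 at 6 weeks, against 2.07, 1.88 and 2.08 at 3 weeks, a difference of -4.17 ± 0.51 (adjusted p = 0.000152). Uts2, the vasoactive peptide urotensin 2, read -0.10, -0.62 and 1.14 at 6 weeks, against 2.95, 3.34 and 2.26 at 3 weeks (-2.71 ± 0.41, adjusted p = 0.000746). Ubd, a ubiquitin-like modifier, read -3.98, -2.98 and -3.24 at 6 weeks, against -0.28, -0.50 and -0.41 at 3 weeks (-3.0 ± 0.28, adjusted p = 1.43e-05). Cplx1, which clamps synaptic vesicle fusion, differed by -2.56 ± 0.39 (adjusted p = 0.000835). Serpinb10, a protease inhibitor, differed by -3.38 ± 0.85 (adjusted p = 0.019) and was well above background on 1 of 3 arrays at 6 weeks. The largest falls were chosen among called genes whose values did not overlap between the ages, so the lack of overlap in these 7 genes is no separate result.

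**Figure D2:**
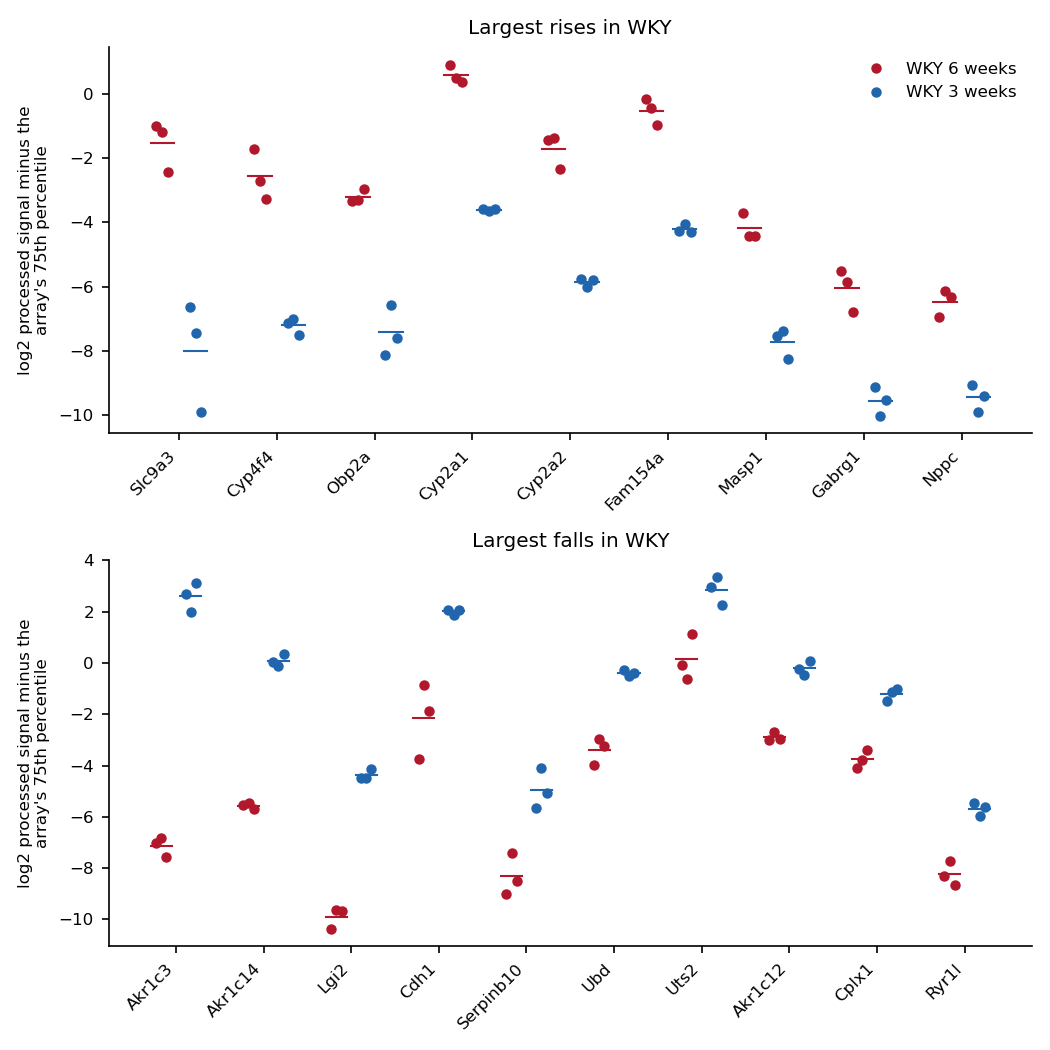
Levels of 9 of the 10 genes with the largest called rises (top) and the 10 with the largest called falls (bottom) on the WKY arrays at 6 weeks (red) and 3 weeks (blue), as log2 processed signal relative to the array's 75th percentile, with lines at the group means. These 19 genes were chosen among called genes whose arrays did not overlap between the ages, and the spread at 6 weeks is widest for Cdh1.

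In the steroid pathway, Cyp11b1 and Cyp11b2, enzymes of the last steps, were lower at 6 weeks, while Cyp11a1, Hsd3b1 and Cyp21a1 of earlier steps were not called. Cyp11a1, which cleaves the cholesterol side chain, read 7.44, 7.27 and 7.52 at 6 weeks, against 7.36, 7.49 and 7.48 at 3 weeks (-0.03 ± 0.10, adjusted p = 0.874). Hsd3b1 differed by 0.09 ± 0.07 (adjusted p = 0.474) and Cyp21a1, the 21-hydroxylase, by 0.10 ± 0.08 (adjusted p = 0.502). Star, which carries cholesterol into the mitochondrion, rose: it read 5.52, 5.51 and 5.75 at 6 weeks, against 4.91, 5.12 and 5.03 at 3 weeks (0.58 ± 0.08, adjusted p = 0.000576), while a second probe of Star differed by 0.11 and was not called. Mc2r, the ACTH receptor, was not called (0.36 ± 0.14, adjusted p = 0.11). Of the 27 measured genes of steroid hormone synthesis, out of 28 listed, 1 was higher and 7, Akr1c3 among them, were lower, with a median difference of -0.03. Between 5 and 7 were lower when single arrays were left out. Fdx1, which is not tied to the last steps alone, was also lower (-0.37 ± 0.09). Nr0b1 and Nr5a1, nuclear receptors that regulate steroid genes, were among the lower ones. Nr0b1 read 1.83, 2.56 and 1.91 at 6 weeks, against 3.05, 3.06 and 3.18 at 3 weeks (-1.0 ± 0.21, adjusted p = 0.00633), and Nr5a1 differed by -0.70 ± 0.19 (adjusted p = 0.024). Srd5a1, a steroid 5α-reductase, read -0.53, -0.61 and -0.02 at 6 weeks, against 0.47, 0.81 and 0.45 at 3 weeks (-0.96 ± 0.16, adjusted p = 0.00133).

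Cyp11b2, the aldosterone synthase, read 2.71, 2.83 and 2.74 at 6 weeks, against 4.33, 4.07 and 4.34 at 3 weeks. It fell by 1.49 ± 0.13, or 2.81-fold (adjusted p = 7.51e-06), with the ages far from overlapping. Cyp11b1, the 11β-hydroxylase that makes corticosterone, read 5.91, 6.03 and 6.21 at 6 weeks, against 6.71, 6.75 and 6.64 at 3 weeks and fell by 0.65 ± 0.08 (adjusted p = 0.000218). The Cyp11b genes are close copies on chromosome 7, so probes may not be specific to a gene. The probes that fell most are printed, with the run of 21 bases that they share in capitals. They lie on the minus strand at chr7:113013351-113013410 and chr7:112948993-112949052 (rn4).
Cyp11b3, first probe: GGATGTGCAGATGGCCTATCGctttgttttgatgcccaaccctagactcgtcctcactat
Cyp11b1, first probe: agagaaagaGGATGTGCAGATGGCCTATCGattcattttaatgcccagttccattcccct

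This Cyp11b3 probe read -1.04, -0.96 and -1.04 at 6 weeks, against 3.16, 2.76 and 3.60 at 3 weeks, and fell by 4.19 ± 0.22 (adjusted p = 9.79e-08 in the fit of every probe apart). The probe labelled Cyp11b1 that shares the run read -2.43, -2.60 and -2.34 at 6 weeks, against 0.98, 0.66 and 1.5 at 3 weeks, and fell by 3.50 ± 0.25 (adjusted p = 1.55e-06). The Cyp11b1 probe used above, at chr7:112977770-112977829, shares no run of 15 bases with the others. A second Cyp11b3 probe, at chr7:113018137-113018196, differed by -0.76 ± 0.11 (adjusted p = 0.000669). All these probes were lower at 6 weeks on every array, but probes labelled for the same gene differed in the size of the fall, so the size for either gene is uncertain. Cyp11b3 was named after its values were seen.

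Of 21 measured genes that mark or regulate the zona glomerulosa, none was higher and 5 were lower, among them Cyp11b2, and the median difference was -0.32 (-0.12 within slide 1 and -0.24 within slide 4). The others were Col4a2 with -0.65 ± 0.14 (adjusted p = 0.00656), the L-type calcium channel gene Cacna1d with -0.46 ± 0.10 (adjusted p = 0.00928), Smoc2 with -0.52 ± 0.15 (adjusted p = 0.0396), where a second probe gave -0.28 and was not called, and Rgs4 with -0.45 ± 0.12 (adjusted p = 0.0283). The count was 3 without any single array of the 3-week glands, and without replicate 2 or 3 of the 6-week glands. Col4a2 is also in the collagen list and Cacna1d in that of sodium, calcium and nicotinic channels. Of the 21 members, 6 had a difference above 0 and 15 below it. Members not called included Dab2 (0.12 ± 0.12), Ccn3 (0.58 ± 0.18) and Agtr1b (-0.14 ± 0.19). Among 11 measured genes that inactivate or bind corticosteroids, 2 were lower, Akr1c14 and Srd5a1, and 2 higher, the sulfotransferase Sult1a1 with 1.14 ± 0.21 (adjusted p = 0.00265) and Hsd11b1, which regenerates active glucocorticoid, with 0.63 ± 0.16 (adjusted p = 0.0188). Only 1 of these was higher without replicate 1 or 2 at 6 weeks, or replicate 2 or 3 at 3 weeks.

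The list with the largest share of called members was that of cholesterol synthesis, uptake and storage. Of its 36 measured genes, out of 39 listed, 21 (58.3%) were higher at 6 weeks and none was lower, and the median difference was 0.63 (0.69 within slide 1 and 0.61 within slide 4), against 0.02 over all genes. With any single array left out, between 18 and 21 genes were higher. Called enzymes stood at early and at late steps of synthesis, while Mvk, Pmvk, Mvd, Fdft1 and Nsdhl of the same pathway, with differences between -0.01 (Pmvk) and 0.46 (Fdft1), were not called. Hmgcs1, which makes HMG-CoA, read 3.65, 3.80 and 4.21 at 6 weeks, against 2.77, 3.01 and 3.08 at 3 weeks (0.93 ± 0.19, adjusted p = 0.00588). Idi1, the isopentenyl diphosphate isomerase, was higher by 1.74 ± 0.19 and read 1.72, 2.19 and 2.49 at 6 weeks, against 0.31, 0.43 and 0.46 at 3 weeks (adjusted p = 5.02e-05). Further down the pathway, Sqle, the squalene epoxidase, differed by 1.06 ± 0.17 (adjusted p = 0.00117), Lss by 0.74 ± 0.17 (adjusted p = 0.0129) and Cyp51 by 0.87 ± 0.16 (adjusted p = 0.00248). Tm7sf2, a sterol reductase, had the largest difference of the list: it read -0.70, -1.58 and -1.16 at 6 weeks, against -3.42, -3.35 and -3.16 at 3 weeks (2.17 ± 0.20, adjusted p = 1.65e-05). Hsd17b7, of the last steps, differed by 1.30 ± 0.18 (adjusted p = 0.000339).

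Regulators and carriers of cholesterol were among the higher genes too. Srebf2, the transcription factor that drives the synthesis genes, read 1.48, 1.65 and 1.55 at 6 weeks, against 0.91, 0.94 and 0.96 at 3 weeks (0.62 ± 0.07, adjusted p = 7.52e-05). Insig1, which holds that factor back in the endoplasmic reticulum, read 1.48, 1.61 and 2.34 at 6 weeks, against 0.10, 0.48 and 0.31 at 3 weeks (1.51 ± 0.21, adjusted p = 0.000393). Stard4, a sterol carrier, differed by 0.88 ± 0.11 (adjusted p = 0.000133), the exporter Abca1 by 0.72 ± 0.15 (adjusted p = 0.00552) and Apoe by 0.45 ± 0.08 (adjusted p = 0.00328). Scarb1, Soat1 and Lipe, of uptake and storage, were not called. Scarb1, the HDL receptor through which rat adrenal cells take up cholesterol, differed by -0.22 ± 0.17 (adjusted p = 0.455), with -0.57 on a second probe that was not called either. Soat1, which esterifies cholesterol, differed by -0.18 ± 0.11 (adjusted p = 0.298), and Lipe, which releases it, by 0.17 ± 0.17 (adjusted p = 0.583).

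**Figure D3:**
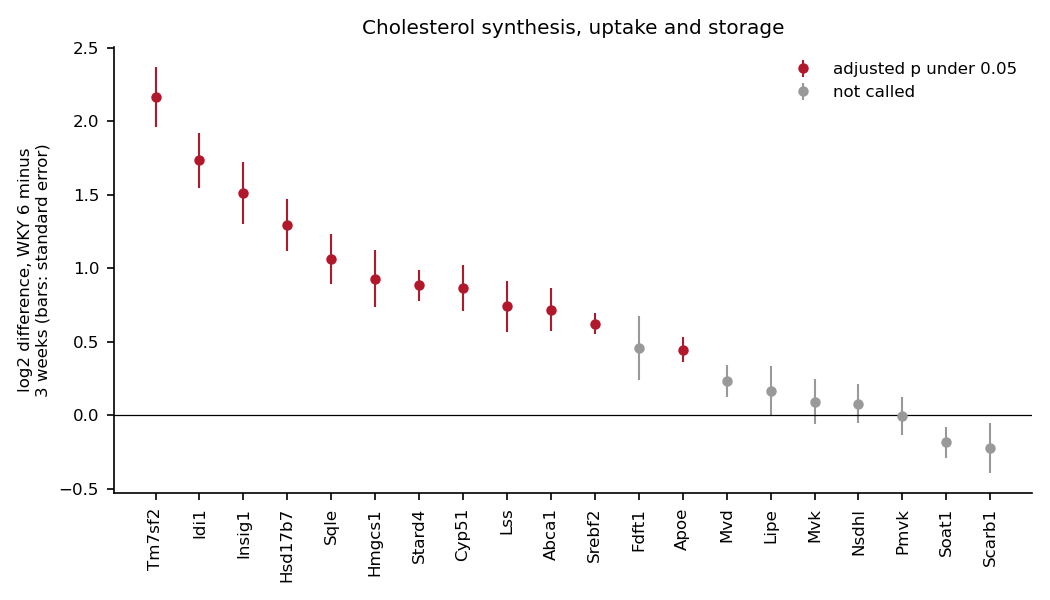
Difference in log2 level between WKY glands at 6 and 3 weeks for the 20 genes of cholesterol synthesis, uptake and storage described in the text, out of 36 measured, with standard errors from limma (n = 3 arrays at each age). The 12 called genes shown (red) are higher at 6 weeks, from Apoe with 0.45 to Tm7sf2 with 2.17, and the 8 others (grey) lie on both sides of 0.

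The largest rise, by the brightest probe of each gene, was that of Slc9a3, the sodium-proton exchanger known from kidney and gut. Slc9a3 read -0.99, -1.16 and -2.41 at 6 weeks, against -6.65, -7.46 and -9.92 at 3 weeks, and the 3-week arrays included 2 of 3 well above background. It rose by 6.49 ± 0.88, or 90-fold (adjusted p = 0.000318), on this probe, while a second probe of Slc9a3 differed by 1.45, so the size of its rise is uncertain. Cyp4f4, which hydroxylates fatty acids and leukotrienes, read -1.71, -2.71 and -3.27 at 6 weeks, against -7.13, -7.01 and -7.51 at 3 weeks (4.66 ± 0.73, adjusted p = 0.001). Cyp4f4 was well above background on 1 of 3 arrays at 3 weeks, as were Obp2a, a lipocalin listed as Lcn13 in the array design (4.25 ± 0.63, adjusted p = 0.000603), and Masp1, a protease of the lectin pathway of complement (3.54 ± 0.70, adjusted p = 0.00453, with 1.33 on a second probe). Gabrg1, a subunit of the GABA-A receptor, and Nppc, the precursor of C-type natriuretic peptide, were not well above background on any 3-week array. Gabrg1 was at least 3.01-fold higher at 6 weeks (adjusted p = 0.000439) and Nppc at least 2.25-fold (adjusted p = 0.00121). Fam154a read -0.13, -0.44 and -0.95 at 6 weeks, against -4.26, -4.06 and -4.29 at 3 weeks (3.70 ± 0.34, adjusted p = 1.49e-05).

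Cyp2a1 and Cyp2a2, steroid hydroxylases known from rat liver that act on testosterone, rose side by side. Their probes lie on the plus strand of chromosome 1, at chr1:82019991-82020050 and chr1:82063430-82063489 (rn4), and share the run of 19 bases in capitals, so each may also bind the other transcript.
Cyp2a1: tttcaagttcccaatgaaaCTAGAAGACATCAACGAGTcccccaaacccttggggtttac
Cyp2a2: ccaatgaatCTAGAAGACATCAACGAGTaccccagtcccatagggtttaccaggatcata

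Cyp2a1 read 0.93, 0.51 and 0.40 at 6 weeks, against -3.57, -3.66 and -3.58 at 3 weeks and rose by 4.21 ± 0.40, or 18.6-fold (adjusted p = 1.74e-05). Cyp2a2 read -1.42, -1.36 and -2.33 at 6 weeks, against -5.78, -6.01 and -5.80 at 3 weeks and rose by 4.16 ± 0.38 (adjusted p = 1.38e-05). Several genes of this group are also known from liver or kidney, so the markers of these organs are given beside them. Of 21 measured liver genes, 2 were higher, Hpx with 1.91 ± 0.21 (adjusted p = 5.12e-05) and Ass1 with 2.68 ± 0.38 (adjusted p = 0.000479), and none lower. Their median difference was -0.11 (0.60 within slide 1 and -0.69 within slide 4), and the log2 of their summed signal was 4.78, 4.32 and 4.14 at 6 weeks, against 3.85, 4.05 and 4.30 at 3 weeks. Alb, serum albumin, read -2.11, -2.63 and -3.44 at 6 weeks, against -3.49, -3.43 and -2.16 at 3 weeks and its values overlapped (0.30 ± 1.47, adjusted p = 0.924). Of 19 measured kidney genes, 2 were higher, Slc12a3 with 0.82 ± 0.14 (adjusted p = 0.00153, with 0.45 on a second probe that was not called) and Slc22a6 with 0.61 ± 0.08 (adjusted p = 0.000305), and 1 lower, Aqp1 with -0.46 ± 0.14 (adjusted p = 0.0451), which was not called when any array other than replicate 3 at 6 weeks was left out. Their summed signal was 1.64, 1.41 and 1.62 at 6 weeks, against 1.74, 1.75 and 1.88 at 3 weeks on the log2 scale, and Umod, a defining gene of the kidney, differed by -0.01 ± 0.33 (adjusted p = 0.991). Umod and Slc12a1 were well above background on all 6 arrays. The part of RNA from other organs in these rises was not tested.

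**Figure D4:**
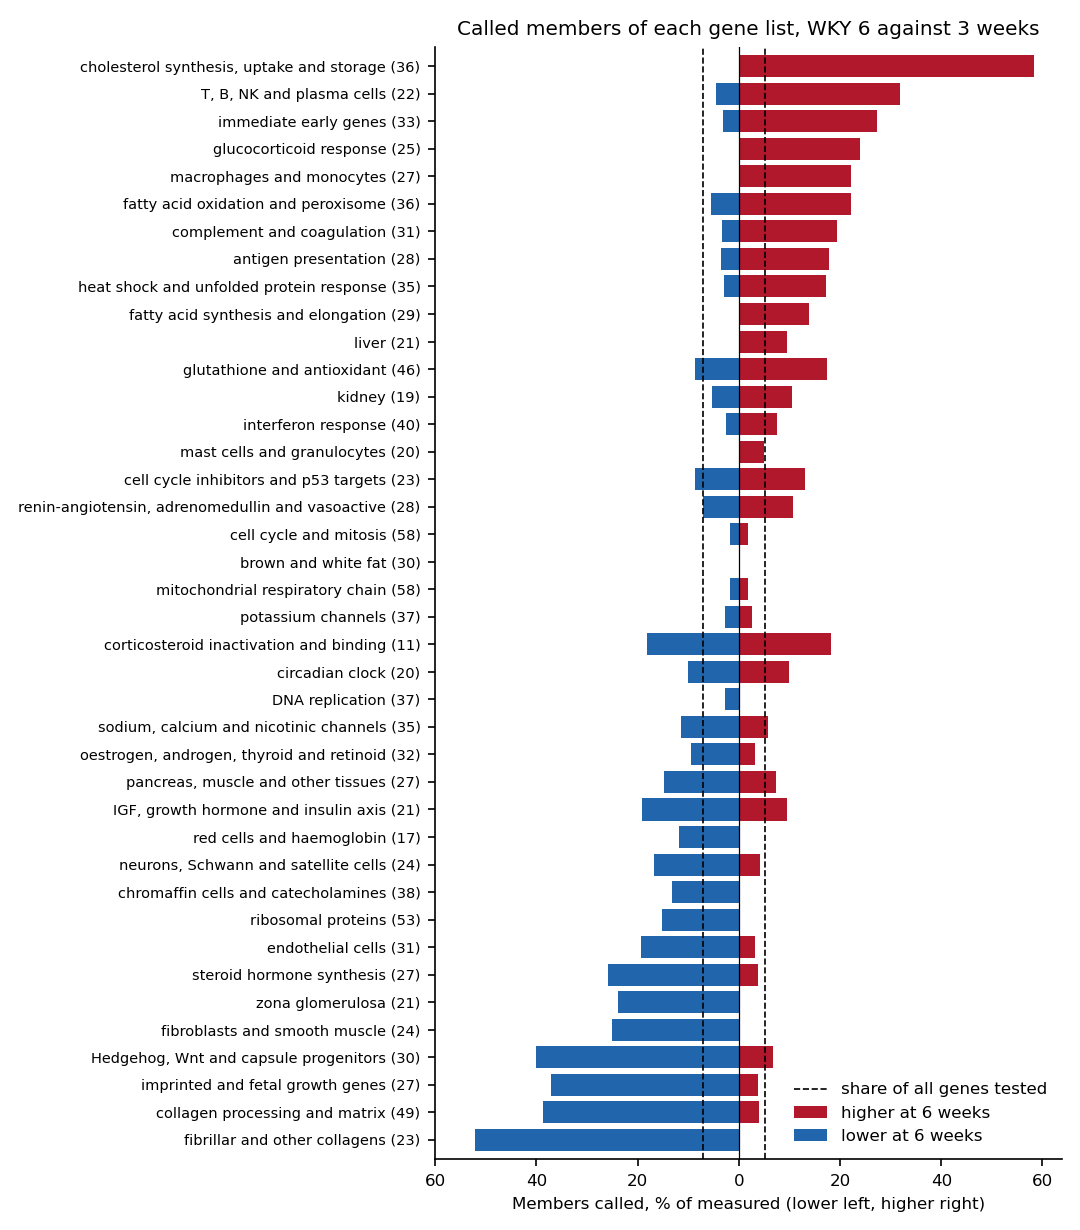
Share of the measured members of each of 40 gene lists that were called higher (red, to the right) or lower (blue, to the left) in WKY glands at 6 weeks than at 3 weeks, with the number of measured members in brackets. The dashed lines mark the shares over all genes tested, 5.16% higher and 7.17% lower. Cholesterol genes stand at one end with 58.3% higher and fibrillar and other collagens at the other with 52.2% lower.

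Imprinted and fetal growth genes, many of which are known to fall after birth as organs stop growing, held more lower than higher members. Of 27 measured members, out of 35 listed, 10 (37%) were lower and 1 was higher, and the median difference was -0.36 (-0.37 within slide 1 and -0.42 within slide 4). H19, an imprinted noncoding RNA, read -1.64, -1.41 and -2.35 at 6 weeks, against 0.62, 0.68 and 0.87 at 3 weeks and fell by 2.52 ± 0.34 (adjusted p = 0.000295). Cdkn1c, an imprinted inhibitor of the cell cycle, read 2.24, 2.25 and 2.62 at 6 weeks, against 3.74, 3.77 and 3.77 at 3 weeks (-1.39 ± 0.15, adjusted p = 4.9e-05). Igf2bp2, which binds the Igf2 mRNA, differed by -1.36 ± 0.13 (adjusted p = 1.65e-05) on 1 probe and by 0.21 on the other, which was not called, Sgce by -0.79 ± 0.07 (adjusted p = 1.43e-05), Mest by -0.76 ± 0.10 (adjusted p = 0.000285) and Dlk1, a Notch-like ligand of progenitor cells, by -0.63 ± 0.11 (adjusted p = 0.00165). Igf2 itself, the fetal growth factor, read -2.19, -2.11 and -2.61 at 6 weeks, against -1.62, -1.70 and -1.52 at 3 weeks and did not pass the threshold (-0.69 ± 0.22, adjusted p = 0.0574), although the ages did not overlap. The exception was Mycn, which was higher by 0.93 ± 0.17 (adjusted p = 0.00243).

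In the growth hormone and IGF axis, 2 of 21 measured members were higher and 4 lower. The higher ones were Igf1, the growth factor that growth hormone induces, which read 4.20, 3.62 and 3.90 at 6 weeks, against 2.96, 2.61 and 2.80 at 3 weeks (1.12 ± 0.24, adjusted p = 0.00815), and Ghr, the growth hormone receptor, with 0.77 ± 0.16 (adjusted p = 0.00578). Igfbp6 differed by -1.07 ± 0.25 (adjusted p = 0.0119) and Igfbp2 by -0.38 ± 0.10 (adjusted p = 0.0242), both binding proteins of the IGFs, and Stat5b by -0.28 ± 0.07 (adjusted p = 0.0211). The count of lower members was 1 without replicate 1 or 3 of the 3-week glands and 2 without replicate 1 or 2 of the 6-week glands.

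Genes of Hedgehog and Wnt signalling and of the capsule were also lower more often than higher: 12 of 30 measured members (40%) were lower and 2 higher, with a median of -0.38 (-0.39 within slide 1 and -0.49 within slide 4). Between 8 and 11 were lower when single WKY arrays were left out, and 6 with only the WKY arrays in the fit. All 3 Gli transcription factors of the Hedgehog pathway were lower. Gli1, whose transcription reports the pathway's activity, read -5.61, -5.42 and -5.68 at 6 weeks, against -4.55, -4.75 and -4.70 at 3 weeks (-0.90 ± 0.13, adjusted p = 0.000635). Gli3 read -7.06, -5.94 and -6.15 at 6 weeks, against -5.22, -5.27 and -4.95 at 3 weeks (-1.24 ± 0.24, adjusted p = 0.00453) and Gli2 differed by -1.04 ± 0.29 (adjusted p = 0.0312), although its second probe gave 0.30 and was not called. Hhip, a target and inhibitor of the pathway, differed by -0.78 ± 0.15 (adjusted p = 0.00482). The ligand Shh read -6.58, -6.17 and -6.74 at 6 weeks, against -6.34, -6.40 and -6.16 at 3 weeks and was not called (-0.19 ± 0.18, adjusted p = 0.558), nor was the receptor Ptch1 (-0.34 ± 0.19, adjusted p = 0.287). Sfrp4, a secreted Wnt inhibitor, read -4.77, -5.07 and -5.61 at 6 weeks, against -3.21, -3.27 and -2.73 at 3 weeks (-2.08 ± 0.40, adjusted p = 0.00405), and Tcf21, a factor of capsular mesenchyme, differed by -0.49 ± 0.15 (adjusted p = 0.0445). Hes1, a Notch target, rose and read -2.62, -1.57 and -1.63 at 6 weeks, against -3.81, -3.93 and -3.68 at 3 weeks (1.86 ± 0.34, adjusted p = 0.003).

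Collagen genes made the list with the largest share of lower members. Of 23 measured collagen genes, out of 26 listed, 12 (52.2%) were lower and none higher, with a median of -0.52 (-0.55 within slide 1 and -0.61 within slide 4), and 9 to 12 were lower when single arrays were left out. Col1a1, a chain of type I collagen, read 2.90, 3.34 and 2.38 at 6 weeks, against 4.12, 3.99 and 4.09 at 3 weeks (-1.2 ± 0.24, adjusted p = 0.00472). Col5a2, a minor fibrillar chain, read 0.41, 0.55 and 0.34 at 6 weeks, against 1.53, 1.38 and 1.38 at 3 weeks (-1.0 ± 0.11, adjusted p = 7.5e-05). Col16a1 differed by -1.05 ± 0.13 (adjusted p = 0.000147) and Col27a1 by -0.62 ± 0.12 (adjusted p = 0.0051). Among 49 measured genes of collagen processing and matrix, 19 (38.8%) were lower and 2 higher, with 11 lower without replicate 1 of the 3-week glands and 12 without replicate 3. Fbn2, a fibrillin of growing tissue, read -1.82, -1.30 and -2.02 at 6 weeks, against 0.09, -0.06 and 0.03 at 3 weeks (-1.74 ± 0.20, adjusted p = 9.55e-05). Mmp9, a gelatinase, differed by -1.98 ± 0.21 (adjusted p = 3.97e-05), the microfibril protein gene Mfap2 by -1.26 ± 0.17 (adjusted p = 0.000297) and Thbs2 by -1.09 ± 0.16 (adjusted p = 0.000689). In the other direction, Lox, which cross-links collagen and elastin, read -0.24, -0.55 and -0.59 at 6 weeks, against -1.14, -1.31 and -1.48 at 3 weeks (0.85 ± 0.13, adjusted p = 0.000936).

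Markers of the cells that make matrix were lower in part. Of 24 measured markers of fibroblasts and smooth muscle, 6 were lower and none higher, with a median of -0.35 (-0.20 within slide 1 and -0.54 within slide 4). Their log2 summed signal was 3.90, 3.80 and 3.58 at 6 weeks, against 4.12, 4.05 and 4.14 at 3 weeks, so each array at 6 weeks was below each at 3 weeks. Thy1 differed by -0.84 ± 0.23 (adjusted p = 0.0266), the smooth muscle genes Actg2 by -0.97 ± 0.26 (adjusted p = 0.0256) and Myl9 by -0.54 ± 0.14 (adjusted p = 0.0228), and the pericyte gene Cspg4 by -0.40 ± 0.11 (adjusted p = 0.0265). This count depended on single arrays: it was 0 without replicate 3 of the 6-week glands, 2 without their replicate 2, and 2, 1 and 1 without replicates 1, 2 and 3 of the 3-week glands. The part of the share of these cells in the fall of the matrix genes was not tested.

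Of 38 measured genes of chromaffin cells, 5 were lower and none higher, and the median was -0.21 (-0.22 within slide 1 and -0.27 within slide 4). Th, the rate-limiting enzyme of catecholamine synthesis, read 3.29, 3.48 and 3.27 at 6 weeks, against 3.93, 3.82 and 3.79 at 3 weeks (-0.50 ± 0.13, adjusted p = 0.0215). Pnmt, which turns noradrenaline into adrenaline, read 1.76, 2.0 and 2.12 at 6 weeks, against 2.63, 2.57 and 2.61 at 3 weeks (-0.64 ± 0.12, adjusted p = 0.00334), and Ddc, which makes dopamine, differed by -0.28 ± 0.08 (adjusted p = 0.0417), with -0.14 on a second probe that was not called. Dbh itself was not called (-0.14 ± 0.17, adjusted p = 0.665), nor was Chga, the granin of the secretory granule (-0.03 ± 0.19, adjusted p = 0.944). The largest called falls were of Vgf, a neuropeptide precursor, with -3.45, -3.56 and -3.22 at 6 weeks, against -1.73, -1.87 and -1.76 at 3 weeks (-1.62 ± 0.39, adjusted p = 0.0151), and of Cpe, a prohormone carboxypeptidase, with -0.53, -0.43 and -0.50 at 6 weeks, against 0.69, 0.65 and 0.63 at 3 weeks (-1.14 ± 0.07, adjusted p = 5e-07). The log2 summed signal of the list was 6.47, 6.60 and 6.51 at 6 weeks, against 6.84, 6.80 and 6.80 at 3 weeks, lower on each 6-week array. The count was 2 without replicate 1 or 3 of the 3-week glands, and 3 without their replicate 2 or without replicate 1 of the 6-week glands. Gfra1, a receptor subunit for the neurotrophic factor GDNF that was named for its difference from SHR, read -4.84, -4.50 and -4.57 at 6 weeks, against -2.12, -2.21 and -2.23 at 3 weeks (-2.45 ± 0.29, adjusted p = 0.000111).

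Among 24 measured genes of neurons, Schwann cells and satellite cells, 4 were lower and 1 higher, with a median of -0.48 (-0.15 within slide 1 and -0.76 within slide 4). The lower ones included the myelin gene Pmp22 with -0.61 ± 0.17 (adjusted p = 0.0303) and the adhesion gene Ncam1 with -0.67 ± 0.13 (adjusted p = 0.00501). Mbp, another myelin gene, was counted as lower by its brightest probe (-1.05 ± 0.29, adjusted p = 0.0279). A second Mbp probe was called in the opposite direction (0.91), so the direction of Mbp is uncertain. Tubb3, a neuronal tubulin, read 0.67, 1.2 and 0.86 at 6 weeks, against -0.63, -0.25 and -0.19 at 3 weeks and was higher (1.27 ± 0.34, adjusted p = 0.0259). Tubb3 was not called when any array other than replicate 1 at 6 weeks was left out. Without replicate 2 or 3 of the 3-week glands 1 member was lower, and without replicate 2 or 3 of the 6-week glands 2.

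Of 31 measured genes of the endothelial list, 6 were lower, 1 was higher and 24 were not called, with a median of -0.11 (-0.07 within slide 1 and -0.16 within slide 4). Markers not called included Pecam1 (-0.19 ± 0.08), Cdh5 (0.08 ± 0.18), Kdr (0.12 ± 0.11), Tek (-0.13 ± 0.10) and Vwf (0.19 ± 0.19), while Tie1 was lower (-0.55 ± 0.14). Apln, the peptide apelin of growing vessel tips, read -0.64, 0.63 and -0.42 at 6 weeks, against 1.23, 1.26 and 1.45 at 3 weeks (-1.46 ± 0.27, adjusted p = 0.00314), and its receptor gene Aplnr differed by -0.53 ± 0.12 (adjusted p = 0.0131). The angiopoietins, ligands of the Tie2 receptor, went opposite ways. Angpt1, which stabilises vessels, read -1.33, -1.15 and -1.61 at 6 weeks, against -2.79, -2.67 and -2.35 at 3 weeks (1.24 ± 0.18, adjusted p = 0.000593), and Angpt2, which antagonises it, differed by -0.61 ± 0.14 (adjusted p = 0.0122). Cldn5, a tight junction protein, differed by -0.72 ± 0.15 (adjusted p = 0.00584). Without replicate 1 or 2 of the 3-week glands 3 members were lower. Receptors of vasoactive peptides did not share a direction. Ednrb, an endothelin receptor, was higher by 0.92 ± 0.15 (adjusted p = 0.00126) and Avpr1a, a vasopressin receptor, by 1.17 ± 0.22 (adjusted p = 0.00355), while Aplnr was lower. In the list of 28 measured vasoactive genes, 3 were higher, with Nppc, and 2, Apln and Aplnr, were lower.

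The lists of lymphocyte and macrophage markers held more higher than lower members at 6 weeks. Of 22 measured genes of T, B, NK and plasma cells, out of 35 listed, 7 (31.8%) were higher and 1 was lower, with a median of 0.38 (0.52 within slide 1 and 0.30 within slide 4). Gzmk, a granzyme of cytotoxic lymphocytes, read -4.84, -4.94 and -5.54 at 6 weeks, against -6.54, -6.28 and -6.70 at 3 weeks (1.4 ± 0.16, adjusted p = 7.52e-05). Nkg7, of the cytotoxic granule, differed by 0.95 ± 0.12 (adjusted p = 0.000141), Gzma by 0.86 ± 0.12 (adjusted p = 0.000421) and Prf1, the perforin, by 0.60 ± 0.11 (adjusted p = 0.00262). Cd3g, a chain of the T cell receptor complex, read -4.07, -3.83 and -4.67 at 6 weeks, against -5.81, -5.20 and -5.41 at 3 weeks (1.28 ± 0.22, adjusted p = 0.00155). The log2 summed signal of these markers was 0.63, 0.77 and 0.38 at 6 weeks, against 0.23, 0.20 and 0.28 at 3 weeks, higher on each 6-week array. The lower gene was Klrb1a, a receptor of NK cells named after its value was seen (-0.39 ± 0.12, adjusted p = 0.0406). It was not called when any array other than replicate 1 at 6 weeks was left out.

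Of 27 measured macrophage genes, 6 (22.2%) were higher and none lower, with a median of 0.21 (0.53 within slide 1 and 0.07 within slide 4) and 4 to 7 higher when single arrays were left out. Fcgr3a, an Fc receptor, read -2.38, -3.35 and -2.64 at 6 weeks, against -4.57, -4.14 and -4.37 at 3 weeks (1.57 ± 0.26, adjusted p = 0.00138). Cd14 differed by 0.87 ± 0.18 (adjusted p = 0.00681), the scavenger receptor Msr1 by 0.87 ± 0.18 (adjusted p = 0.00576) and Spp1, osteopontin, by 1.08 ± 0.16 (adjusted p = 0.000765). Cd68 was not called (0.26 ± 0.14, adjusted p = 0.251). In antigen presentation, 5 of 28 members were higher and 1 was lower, and B2m, the light chain of class I molecules, read 5.02, 4.99 and 4.92 at 6 weeks, against 4.36, 4.52 and 4.52 at 3 weeks (0.51 ± 0.08, adjusted p = 0.00102). That count was 2 without replicate 1 of either age and 3 without replicate 2 or 3 of the 3-week glands. Ifi27 led the interferon response list, of which 3 of 40 were higher and 1 lower: it read 6.11, 6.29 and 5.88 at 6 weeks, against 4.69, 5.01 and 5.02 at 3 weeks (1.18 ± 0.18, adjusted p = 0.000669). Without replicate 1 of either age, 1 member of that list was higher, and none was lower when any single WKY array was left out. In complement and coagulation, 6 of 31 were higher, among them Masp1 and the clotting factor F5 (-1.79, -2.13 and -1.99 at 6 weeks, against -4.96, -4.43 and -4.51 at 3 weeks; 2.67 ± 0.23, adjusted p = 7.51e-06), and 1 was lower. Of 20 measured mast cell and granulocyte markers, 17 had a difference below 0, with a median of -0.28 (-0.29 within slide 1 and -1.03 within slide 4), none was called lower and 1, Lcn2, was called higher (0.61 ± 0.16, adjusted p = 0.0252). Lcn2 was not called when any array other than replicate 2 at 6 weeks was left out.

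Immediate early genes, which respond within minutes to hormones and to handling, were higher in part. Of 33 measured members, out of 36 listed, 9 (27.3%) were higher and 1 was lower, with a median of 0.36 (0.21 within slide 1 and 0.37 within slide 4). Fos read -3.64, -2.19 and -2.89 at 6 weeks, against -4.92, -5.47 and -5.29 at 3 weeks (2.32 ± 0.47, adjusted p = 0.00561). Plk3 read -3.83, -3.21 and -1.97 at 6 weeks, against -4.98, -4.96 and -4.78 at 3 weeks (1.90 ± 0.43, adjusted p = 0.0099), and Csrnp1 differed by 1.21 ± 0.25 (adjusted p = 0.00622) on 1 probe and by 0.26 on the other, which was not called, Btg2 by 1.24 ± 0.36 (adjusted p = 0.0394) and Atf3 by 0.93 ± 0.22 (adjusted p = 0.0137). Dusp1, a phosphatase that glucocorticoids also induce, read -2.74, -2.91 and -2.92 at 6 weeks, against -4.50, -4.52 and -4.51 at 3 weeks (1.66 ± 0.29, adjusted p = 0.00189). Nr4a1, an orphan receptor of the same class, read 2.79, 4.89 and 5.12 at 6 weeks, against 2.65, 2.43 and 3.50 at 3 weeks and was not called (1.41 ± 0.68, adjusted p = 0.204): replicate 1 at 6 weeks lay among the 3-week values. The summed signal of the list was 5.47, 6.35 and 6.48 at 6 weeks, against 5.33, 5.40 and 5.62 at 3 weeks on the log2 scale. The count of higher members was 4 without replicate 2 of the 6-week glands or replicate 1 of the 3-week glands. The sources used here do not give the hour of collection or the manner of death.

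Genes that respond to glucocorticoids were higher in 6 of 25 measured members (24%), with none lower and a median of 0.30 (0.32 within slide 1 and 0.08 within slide 4). Besides Dusp1, Sult1a1 and Lcn2, they held the metallothionein Mt2A (2.86, 2.91 and 2.84 at 6 weeks, against 1.55, 1.70 and 1.96 at 3 weeks; 1.14 ± 0.19, adjusted p = 0.00133) and the glutamine synthetase Glul with 1.14 ± 0.20 (adjusted p = 0.00254). Others of the list gave no call, such as Fkbp5 with 0.01 ± 0.11 (adjusted p = 0.963), Per1 with -0.01 ± 0.22 (adjusted p = 0.987) and Tsc22d3 with 0.34 ± 0.13 (adjusted p = 0.112). Of 20 circadian clock genes 2 were higher, among them Npas2 with 0.85 ± 0.14 (adjusted p = 0.00115) on 1 probe and 0.18 on the other, which was not called, and 2 lower, Cry1 with -1.03 ± 0.16 (adjusted p = 0.000982) and Rora with -0.60 ± 0.11 (adjusted p = 0.00319). Without replicate 1 at 6 weeks, 4 were higher. Of 35 heat shock and unfolded protein genes, 6 were higher and 1 lower, and the small heat shock protein gene Hspb1 read 3.90, 3.67 and 3.73 at 6 weeks, against 2.52, 2.88 and 2.66 at 3 weeks (1.08 ± 0.14, adjusted p = 0.000224). Without replicate 1 of the 3-week glands, 3 of them were higher.

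Genes of the cell cycle showed no common change in WKY. Of 58 measured genes of cell cycle and mitosis 1 was higher, Cdk2 with 0.36 ± 0.09 (adjusted p = 0.0185), and 1 was lower, Cdk4 with -0.62 ± 0.12 (adjusted p = 0.00382), and the median difference was -0.03. The pairs within slides went opposite ways, with medians of -0.31 within slide 1 and 0.32 within slide 4. Top2a, the topoisomerase of dividing cells, read -1.90, -1.90 and -1.47 at 6 weeks, against -1.58, -1.97 and -1.87 at 3 weeks (0.05 ± 0.27, adjusted p = 0.931). Cdk1, the kinase that starts mitosis, read 0.51, 0.59 and 1.16 at 6 weeks, against 0.96, 0.73 and 0.79 at 3 weeks (-0.07 ± 0.24, adjusted p = 0.883). Without replicate 3 at 6 weeks, 3 members were lower, and Cdk2 was not called without replicate 3 of either age. Of 37 genes of DNA replication 1 was lower, the chromatin assembly factor Chaf1b with -0.69 ± 0.15 (adjusted p = 0.00872). Among 23 genes of cell cycle inhibition and p53 targets, the Gadd45 genes diverged: Gadd45g read 2.23, 2.17 and 1.70 at 6 weeks, against -0.17, -0.15 and -0.07 at 3 weeks (2.16 ± 0.22, adjusted p = 3.17e-05) and Gadd45b differed by 0.96 ± 0.19 (adjusted p = 0.00475), while Gadd45a differed by -0.86 ± 0.21 (adjusted p = 0.0147).

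The same list was lower with age in the hypertensive strains. In SHR the median difference between 6 and 3 weeks was -0.80, with 41 of 58 members lower and 2 higher (against 14.1% and 15.1% of all genes), and in SHRSP it was -0.89, with 45 lower and 2 higher (against 18.4% and 10.5%). The change in WKY minus that in SHRSP was called for 10 members, all with the higher value in WKY, against 6.35% of all genes. Between WKY and SHR the changes differed for 1 member, against 2.41%. Top2a differed by 1.31 ± 0.38 between WKY and SHRSP (adjusted p = 0.0411) and by 0.99 ± 0.38 between WKY and SHR (adjusted p = 0.145). Brown and white fat markers moved with the same contrast: none of 30 was called in WKY, with medians of 0.61 within slide 1 and -0.76 within slide 4, while 20 and 19 were lower in SHR and SHRSP. Their log2 summed signal in WKY was 7.93, 7.50 and 7.09 at 6 weeks, against 7.16, 7.26 and 7.71 at 3 weeks. The part of adhering fat in the difference between strains was not tested.

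**Figure D5:**
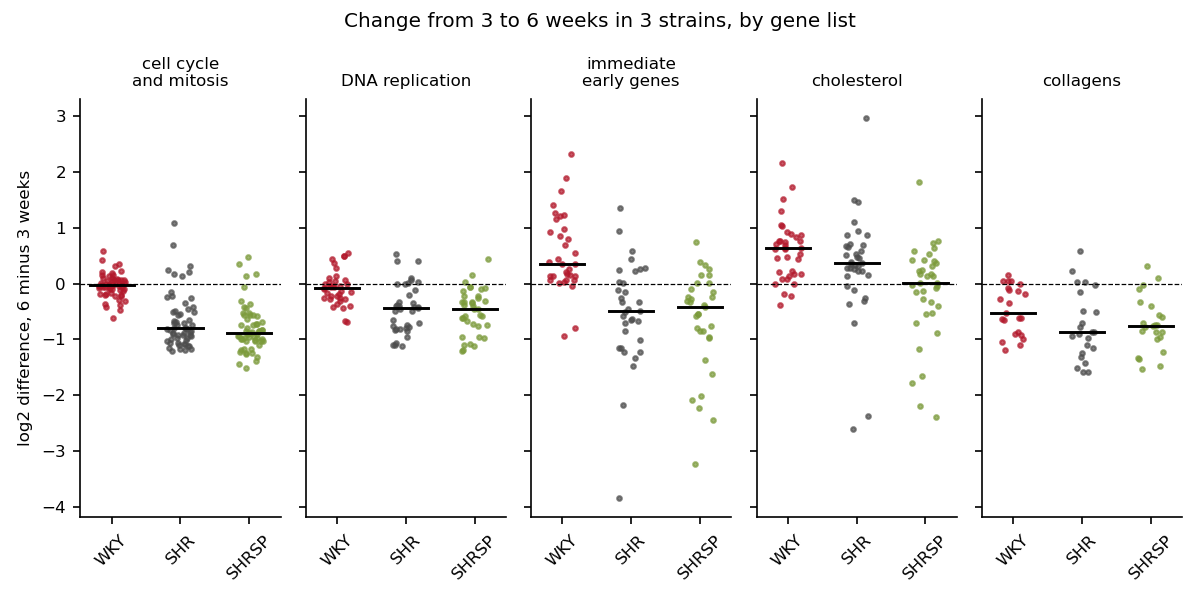
Difference in log2 level between 6 and 3 weeks for each measured member of 5 gene lists (points) in WKY, SHR and SHRSP, with lines at the medians. For cell cycle and mitosis the medians are -0.03 in WKY, -0.80 in SHR and -0.89 in SHRSP, and for immediate early genes they are 0.36, -0.49 and -0.41.

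Across all genes, the change with age in WKY differed from that in SHR for 1212 genes (5.81%), 502 (2.41%) with the higher value in WKY and 710 (3.4%) with the lower one. It differed from that in SHRSP for 2099 genes (10.1%), 1326 (6.35%) higher and 773 (3.7%) lower in WKY. Both comparisons use the same 6 WKY arrays. Slide 5, with a scan day of its own, held replicate 2 of WKY, replicates 2 and 3 of SHR and replicate 3 of SHRSP, all at 6 weeks. For these arrays, slide and scan day cannot be fully told apart from age, and the strains did not share slide 5 evenly. Leaving out single arrays gave between 520 genes (without replicate 2 of the SHR at 3 weeks) and 1211 for the comparison with SHR, with 590, 566 and 613 without replicates 1, 2 and 3 of WKY at 3 weeks, 787 without replicate 3 of SHR at 3 weeks, and 749 and 807 without replicates 1 and 3 of SHR at 6 weeks. For the comparison with SHRSP the count was 1306 without replicate 2 of WKY at 3 weeks. Quantile normalization turned the split against SHR to 468 higher and 321 lower and that against SHRSP to 930 and 952. With centring on the median, the split against SHR was 386 and 1112, and the median over all genes was -0.17, against -0.07 with the percentile. Of the 2572 genes called in WKY, 376 also differed from SHR and 531 from SHRSP. Of the 1076 genes higher in WKY, 674 were also called higher in SHR and 32 lower, and 559 were called higher in SHRSP and 78 lower. Of the 1496 lower genes, 805 were also lower in SHR and 40 higher, and 768 were lower in SHRSP and 48 higher. The fall of Akr1c3 was of similar size in all strains, -9.72 in WKY, -10.94 in SHR and -10.65 in SHRSP, and the differences were not called (adjusted p = 0.268 and adjusted p = 0.382).

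The genes called in WKY with the largest excess over the change in SHR were Cyp2a1 and Cyp2a2. Cyp2a1 changed by 4.21 in WKY and by 0.67 in SHR (difference 3.55 ± 0.56, adjusted p = 0.00302), and Cyp2a2 by 4.16 and 0.90 (3.26 ± 0.54, adjusted p = 0.00402). Sfrp4 fell in WKY by less than in SHR, where it changed by -5.17 (adjusted p = 0.0073). Ass1, the argininosuccinate synthase, changed by 2.68 in WKY and by -0.12 in SHR (adjusted p = 0.0103), and Noct, a deadenylase with a daily rhythm listed as Ccrn4l, by 1.01 and -1.75 (adjusted p = 0.00245). In the other direction, Gfra1 changed by -2.45 in WKY and by 0.62 in SHR (adjusted p = 0.000893), Stard4 by 0.88 and 2.97 (adjusted p = 3.83e-06), Spp1 by 1.08 and 2.99 (adjusted p = 0.000511), Mycn by 0.93 and 2.66 (adjusted p = 0.00102), and the dicarboxylate transporter gene Slc13a3 by -1.38 and 0.29 (adjusted p = 0.0247). The 6-week and 3-week arrays of WKY did not overlap for these 10 genes. Liver markers moved with this contrast: in SHR the median of the 21 was -2.17, with 1 higher and 8 lower (against 15.1% and 14.1% of all genes). The median of the WKY change minus the SHR change was 2.81, with 1 member called above SHR and none below (against 2.41% and 3.4%). The part of RNA from other organs in these differences between strains was not tested.

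Against SHRSP, the largest excess in WKY was that of Noct, which changed by 1.01 in WKY and by -3.11 in SHRSP (4.12 ± 0.42, adjusted p = 8.84e-05). Fabp6, a bile acid binding protein known from the ileum, read 1.97, 1.12 and 1.54 at 6 weeks, against -1.2, -0.91 and -1.01 at 3 weeks in WKY (2.58 ± 0.22, adjusted p = 7.64e-06) and changed by -1.39 in SHRSP (adjusted p = 8.2e-06). Insig1 changed by 1.51 in WKY and by -1.66 in SHRSP (adjusted p = 4.82e-05), Nppc by -0.26 in SHRSP (adjusted p = 0.0086) and Sfrp4 by -5.45 there (adjusted p = 0.00236). Of the cholesterol genes, the change in WKY was above that in SHRSP for 8 of 36 and below it for none, against 6.35% and 3.7% of all genes. Among the 8 were Idi1 (2.14 ± 0.26, adjusted p = 0.000289), Stard4 (3.08 ± 0.15, adjusted p = 3.59e-08) and Hmgcs1 (1.82 ± 0.27, adjusted p = 0.000967). Of the 33 immediate early genes, the change in WKY was above that in SHR for 8 and above that in SHRSP for 12 (against 2.41% and 6.35% of all genes). It was below either for none (against 3.4% and 3.7%). The change in WKY was below that in SHRSP for Uts2, which changed by -2.71 in WKY and by 2.97 in SHRSP (-5.67 ± 0.58, adjusted p = 8.84e-05), for Ryr1l (-4.84 ± 0.47, adjusted p = 5.89e-05), the fructose transporter gene Slc2a5 (-2.59 ± 0.28, adjusted p = 0.000113) and the protease inhibitor gene A2m (-2.40 ± 0.34, adjusted p = 0.000837).

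In fatty acid oxidation and peroxisomes, 8 of 36 measured genes were higher and 2 lower, with a median of 0.25 (0.45 within slide 1 and -0.07 within slide 4). Ehhadh, of peroxisomal oxidation, read -4.29, -4.30 and -4.65 at 6 weeks, against -5.09, -6.05 and -5.00 at 3 weeks (0.97 ± 0.26, adjusted p = 0.0238), and Acot2 differed by 0.58 ± 0.09 (adjusted p = 0.00133) on 1 probe and by 0.30 on the other, which was not called. That count was 3 without replicate 1 of the 6-week glands or replicate 2 of the 3-week glands, 4 without replicate 1 at 3 weeks and 5 without replicate 2 at 6 weeks or replicate 3 at 3 weeks. Of 29 genes of fatty acid synthesis and elongation 4 were higher and none lower, with 2 left without replicate 1 of the 6-week glands or any single 3-week array. They included Scd2, a desaturase (0.68 ± 0.12, adjusted p = 0.00184), and Acsl4, which activates arachidonic acid (0.50 ± 0.09, adjusted p = 0.00285). In the glutathione and antioxidant list, 8 of 46 were higher, among them Sod3 (0.74 ± 0.13, adjusted p = 0.00203) and Gstk1 (0.62 ± 0.09, adjusted p = 0.000619), and 4 lower, among them Gpx7 (-0.85 ± 0.13, adjusted p = 0.001) and Gpx8 (-0.59 ± 0.09, adjusted p = 0.0011). Without replicate 1 of the 3-week glands 5 were higher, and without their replicate 2 or 3 or replicate 2 at 6 weeks 2 were lower. Of 58 respiratory chain genes, where single arrays decided each call, 1 was higher, Ndufa1 (0.39 ± 0.12, adjusted p = 0.0463), and 1 lower, Cox6a2 (-1.27 ± 0.33, adjusted p = 0.0198).

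Of 53 ribosomal protein genes 8 were lower, by small amounts such as -0.37 ± 0.09 for Rps6 (adjusted p = 0.0189, with -0.25 on a second probe that was not called), and none higher, with a median of -0.21 (-0.20 within slide 1 and -0.16 within slide 4). The difference was below 0 for 53 of the 53. The number of lower genes was 21 and 25 with slide as a fixed and as a random block, none with centring on the array median or with only the WKY arrays in the fit, 5 with quantile normalization, and between 0 and 9 when single WKY arrays were left out. Of 37 potassium channel genes 1 was higher, Kcnh2 with 0.09, 0.08 and -0.20 at 6 weeks, against -1.18, -1.09 and -1.46 at 3 weeks (1.24 ± 0.19, adjusted p = 0.000986, with 0.73 on a second probe that was not called), and 1 lower, Kcna5 (-0.69 ± 0.21, adjusted p = 0.0405), which was not called without replicate 2 or 3 of either age. Of 35 sodium, calcium and nicotinic channel genes 2 were higher, among them the nicotinic subunit gene Chrnb1 (0.92 ± 0.13, adjusted p = 0.000416), and 4 lower, among them Cacna2d3 (-1.11 ± 0.22, adjusted p = 0.00475). In the list of nuclear hormone and retinoid genes, Crabp2, which carries retinoic acid, read -2.30, -2.36 and -2.08 at 6 weeks, against -0.58, -0.56 and -0.93 at 3 weeks (-1.55 ± 0.14, adjusted p = 1.26e-05), 1 of 3 lower members of 32, and Dio3, which inactivates thyroid hormone, differed by -0.93 ± 0.24 (adjusted p = 0.0199). Without replicate 3 of either age 1 member was lower. Of 17 red cell genes 2 were lower, Slc4a1 (-0.63 ± 0.17, adjusted p = 0.0229) and Ahsp, listed as Eraf (-0.52 ± 0.13, adjusted p = 0.0221), with 4 lower without replicate 1 at 6 weeks and none without replicate 2 or 3 of either age. Of 27 genes of pancreas, muscle and other tissues 2 were higher and 4 lower, with Cdh1 and the keratin gene Krt19 (-1.22 ± 0.34, adjusted p = 0.0304) among the lower, and 2 lower without replicate 2 of either age or replicate 3 at 3 weeks.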

How the data were processed

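RNA of whole rat adrenal glands was hybridised to single-colour Agilent arrays, 3 arrays in each of 6 groups of strain and age. Per the file headers, the authors scanned the arrays and extracted signals with Feature Extraction 10.5.1.1 of Agilent, and the probes were annotated on rn4. The deposited processed signal is an intensity after background subtraction, and the deposited series value table holds the same values (largest difference 0). The number of arrays limits the precision, and p-values measure the spread between these samples, labelled biological replicates.

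Control spots and spots flagged as outliers were left out, spots of a probe were averaged, and log2 of each intensity was taken minus the array's 75th percentile. Percentiles of the deposited intensities, and the shares of spots well above background, were computed per array. Of 30367 probes, 17328 were named through accessions in RefSeq gene tables and the others kept the name in the files. A gene was represented by its brightest probe and kept where every array of at least 1 group had it well above background, which left 20868 of 26612 names. limma 3.58.1 (R 4.3.3) fitted 6 group means to all 18 arrays (12 residual degrees of freedom, 2.12 prior), and changes with age were compared between strains by interaction contrasts. On simulated data of the WKY comparison, 75% of genes changed 2-fold and 92% of those changed 4-fold were called over 20868 genes. The simulation changed a smaller share of genes than was called here and held no slide effect, so these rates need not hold for the data. Bounds ("at least") use the lowest signal well above background on each array.

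The members, the 40 lists and the tests were chosen with earlier results of these data known. A few genes of the lists are not reported here. Genes were named as follows: the 10 largest called rises and falls with no overlap, up to 5 members of each list in order of adjusted p, the 5 largest differences each way from each other strain among genes also called in WKY, and a short set of adrenal and growth genes, of which Mki67 was not among the genes tested. Other genes, such as Cyp11b3, the further Akr1c genes, Nr0b1, Nr5a1, Gli2, the further cholesterol genes, Alb, Umod, Cd68, Nr4a1 and Cdk1, were named after their values were seen. Alternatives covered scaling, background, filter, arrays in the fit, slide, scan day, replicate number, probe choice, a minimum fold and single arrays.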

Additional observations from a re-analysis of the deposited data

Results flagged for a closer look

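The change with age differed between the strains, by the interaction term of the limma fit, for 1212 genes between WKY and SHR and for 2099 between WKY and SHRSP. The differences for genes named in the report are given here as the log2 change in WKY minus that in the other strain, with no explanation tested. Their order below is among these named genes only. Both sets of differences rest on the same 6 WKY arrays.

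The largest differences above SHR were found for Cyp2a1 (3.55), Cyp2a2 (3.26), Sfrp4 (3.10), Ass1 (2.81), Noct (2.77), Avpr1a (2.48), Atf3 (2.41) and Btg2 (2.25). Smaller differences above SHR were those of Plk3 (2.23), Uts2 (2.09), Dusp1 (1.99), Npas2 (1.91), Fabp6 (1.85), Nr0b1 (1.81), Msr1 (1.64) and Lipe (0.87).

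The largest differences below SHR were found for Gfra1 (-3.07), Stard4 (-2.09), Spp1 (-1.91), Mycn (-1.73), Slc13a3 (-1.66), Cry1 (-1.41), Ptch1 (-1.19) and Gadd45b (-1.18). Smaller differences below SHR were those of Cyp11b2 (-1.0), Pnmt (-0.83), Cpe (-0.83), Klrb1a (-0.72), Cyp11b3 (-0.67), Cyp11b1 (-0.64) and Slc22a6 (-0.43).

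The largest differences above SHRSP were found for Noct (4.12), Fabp6 (3.97), Sfrp4 (3.37), Nppc (3.25), Insig1 (3.17), Stard4 (3.08), Fos (3.08), Cdh1 (3.0) and Plk3 (2.87). Further ones above SHRSP were found for Hes1 (2.79), Gabrg1 (2.69), Cyp2a2 (2.46), Gadd45g (2.26), Ehhadh (2.25), Dusp1 (2.24), Cyp2a1 (2.22), Idi1 (2.14) and Hmgcs1 (1.82). Next to these above SHRSP stood Btg2 (1.77), Fkbp5 (1.56), Cd3g (1.47), Lipe (1.34), Top2a (1.31), F5 (1.19), Atf3 (1.17), Cdk1 (1.16) and Avpr1a (1.14). Smaller differences above SHRSP were those of Nkg7 (0.80), Rora (0.78), Gzmk (0.78), Gzma (0.73), Igfbp2 (0.72), Cacna1d (0.56) and Star (0.41).

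The largest differences below SHRSP were found for Uts2 (-5.67), Ryr1l (-4.84), Slc2a5 (-2.59), A2m (-2.40), Spp1 (-2.31), Gfra1 (-1.79) and Lgi2 (-1.78). Further ones below SHRSP were found for Kcnh2 (-1.42), Cacna2d3 (-1.34), Hpx (-1.31), Igf1 (-1.23), Mycn (-1.06), Cdkn1c (-0.91) and Sod3 (-0.77). Smaller differences below SHRSP were those of Cpe (-0.75), Aplnr (-0.69), Igf2bp2 (-0.67), Mest (-0.52) and Ddc (-0.50).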

How the results depend on the processing

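For the 2572 genes called in WKY, the count was 1110 with only the 6 WKY arrays in the fit, 4032 with slide as a random block, 546 against a minimum fold of 1.2 and 1085 without slides 2 and 5, an alternative chosen after seeing the data. Leaving out single WKY arrays gave 1444 to 2330 genes, and single arrays of the other strains 2286 to 2791. For the difference from SHR (1212 genes), the count was 789 with quantile normalization, 773 with no filter, 790 with only the arrays of the contrast, 2626 and 2828 with slide as a fixed and as a random block, 2547 with scan day as a block and 212 against the minimum fold. Leaving out single arrays of WKY or SHR gave 520 to 1211 genes, and of SHRSP 926 to 1211. For the difference from SHRSP (2099 genes), it was 3367 with slide as a random block, 3187 with scan day as a block and 639 against the minimum fold, with 1306 to 2115 genes without single arrays of WKY or SHRSP and 1901 to 2296 without those of SHR. The cause of these shifts was not tested.

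Of the genes named in the report, 186 were followed through the alternatives. None of the 186 changed direction past the threshold under any alternative, and 101 kept their side of the threshold under every one. The deviations of same-numbered replicates from their group means correlated at -0.06, -0.34 and 0.04, and those of differently numbered ones at -0.27 to 0.28. With 3 arrays in each group, these values cannot decide whether the numbers pair the samples. With the replicate number as a block, 2806 genes were called in WKY, 1353 differed from SHR and 2380 from SHRSP. With 3 arrays in each group, probes near background limit what could be called: 28 of the higher genes were not well above background at 3 weeks, and 13 of the lower ones at 6 weeks.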
